A study of Mus musculus with 4 samples.

Results

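The glutamate and glutamine cycle was followed through 9 genes, of which 3 encode enzymes (Glul, Gls2 and Glud1), 3 encode glutamate transporters (Slc1a1, Slc1a2 and Slc1a3) and 3 encode glutamine transporters (Slc38a1, Slc38a2 and Slc38a3). They were picked by name, with no measured value in the rule, by matching the Ensembl identifiers of 55421 listed genes to GENCODE M21 symbols. The list was, however, chosen with earlier results of these data known. All 9 were among the 17144 genes with enough counts to be tested. The cells came from the prefrontal cortex (PFC) of newborn (P0) wild-type C57BL/6 mice and were cultured as dissociated cells for 10 days, which mixes neurons and glia. FGF2, a growth factor for neural progenitors and glia, was added at 5 ng/mL in the group of 2 libraries with FGF2, and the other 2 libraries came from cells grown without FGF2. Every culture received neurobasal medium, the B27 supplement and GlutaMAX, a dipeptide source of glutamine, so glutamine was supplied in both groups. The libraries of each group are numbered 1 and 2. No source names them as separate cultures, and technical replicates are described for most bulk samples of the study, so p-values here may leave out the spread between cultures.

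In the brain, glutamate released at synapses is cleared mainly by astrocytes through the transporters GLAST (Slc1a3) and GLT-1 (Slc1a2), and glutamine synthetase (Glul) turns it into glutamine. Astrocytes release glutamine through SNAT3 (Slc38a3), neurons take it up through SNAT1 and SNAT2 (Slc38a1 and Slc38a2), and glutaminases such as Gls2 turn it back into glutamate. Glutamate dehydrogenase (Glud1) links glutamate to the citric acid cycle in mitochondria.

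Depth ran from 9166432 to 10799886 counts on genes per library. Both neuronal and astrocytic RNA was present. Of 14 tested astrocyte markers, 8 were higher and 4 lower with FGF2 (edgeR, adjusted p-value below 0.05), and their summed level was 10670 and 10350 CPM (counts per gene brought to the same library size) with FGF2 against 6425 and 6398 without FGF2, much of it from Gfap. The mean log2 level of these markers was 0.19 higher with FGF2. Of 14 neuron markers, 12 were lower and 1 higher, with summed levels of 4610 and 4733 CPM against 6743 and 6729, and their mean log2 level differed by -0.47. Of the excitatory neuron markers 5 of 11 were lower and 0 higher, of the inhibitory ones 11 of 11 were lower, and 10 of 10 tested oligodendrocyte lineage markers were higher. Of 10 progenitor markers, 4 were higher and 3 lower. Microglial markers summed to 14.2 and 17.7 CPM with FGF2 and 6.09 and 7.02 without FGF2 (3 of 4 tested were higher). Fibroblast and mural markers summed to between 50.3 and 66.3 CPM (2 higher and 2 lower of 6 tested) and endothelial markers to between 4.95 and 9.92 CPM (1 higher and 1 lower of 3 tested), with Cldn5 at 0 counts in every library. In these bulk libraries, fewer cells of a type and less RNA per cell cannot be told apart.

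The transporters that clear glutamate were higher with FGF2, whereas glutamine synthetase, glutamate dehydrogenase and the glutamine release transporter Slc38a3 were lower. Of the 9 genes, 7 passed an adjusted p-value threshold of 0.05 (edgeR), 4 with a higher level (Slc1a1, Slc1a2, Slc1a3 and Slc38a2) and 3 with a lower level (Glul, Glud1 and Slc38a3). Over all tested genes 40.5% passed, 20.7% as higher and 19.9% as lower. The same 7 genes passed with DESeq2, with which 23.2% of the genes given an adjusted p-value passed. The groups did not overlap for 8 of the 9 genes, against 67.1% of all tested genes. The median log2 fold change of the 9 genes was 0.17 and that of all tested genes was -0.0008, with the 9 genes spread from -1.07 for Slc38a3 to 0.55 for Slc1a1. Together the 9 genes made up 0.568% and 0.580% of the gene counts with FGF2 and 0.510% and 0.500% without FGF2.

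**Figure D1:**
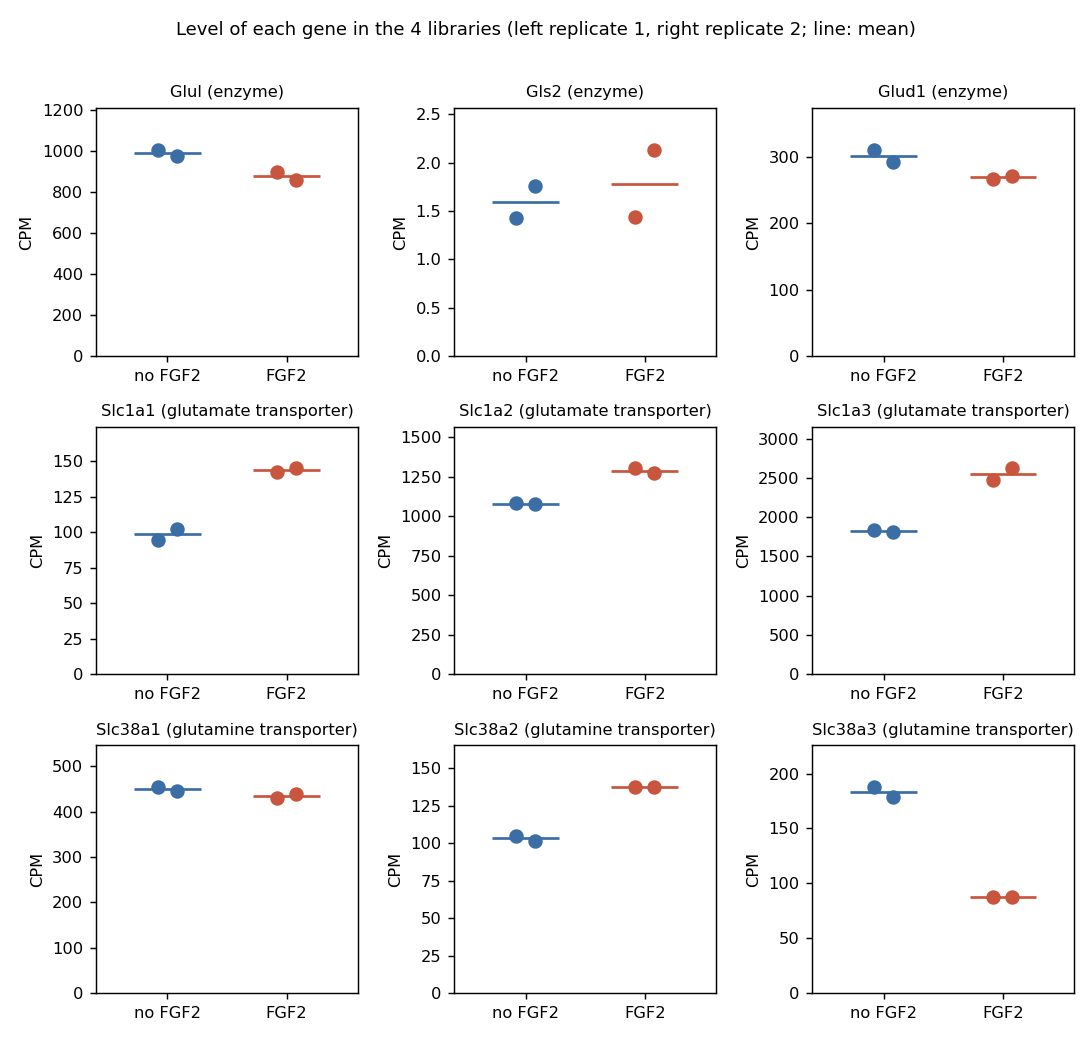
Level of each of the 9 genes in CPM (vertical axis, from 0, with its own range for each gene) in the libraries without FGF2 (blue) and with FGF2 (red). Each point is a library and each line a mean of 2 libraries. The groups are apart for every gene but Gls2, and the widest relative gap is that of Slc38a3, at 87.3 to 87.9 CPM with FGF2 and 179 to 188 CPM without FGF2.

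Glul encodes glutamine synthetase and is found on chromosome 1 (mm10, 153899944 to 153909723, plus strand). Its level was 898 and 857 CPM with FGF2 and 1006 and 974 CPM without FGF2. Both libraries with FGF2 were therefore below both libraries without FGF2, but by a narrow margin, and the mean without FGF2 was 1.13-fold higher. The log2 fold change was -0.17 (standard error 0.03, edgeR adjusted p = 1.4e-06), and it stayed between -0.21 and -0.14 with each library left out in turn. Glul has a pseudogene copy, Glns-ps1, with 8 to 13 counts per library against at least 8152 for Glul, and a further similar gene, AC134576.3, had at most 3 counts.

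Glud1, which encodes glutamate dehydrogenase, lies on chromosome 14 (34310727 to 34345265, plus strand). It had 266 and 271.5 CPM with FGF2 and 311 and 291 CPM without FGF2. The groups did not overlap, and Glud1 fell by 0.16 on the log2 scale (standard error 0.04, edgeR adjusted p = 0.00083). This call rested on replicate 1 without FGF2, the library with the highest level, since the log2 fold change without it was -0.12 and the edgeR adjusted p = 0.14. Its near copy Glud-ps had 2 to 11 counts per library.

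Gls2, the liver-type glutaminase, lies on chromosome 10 (128194457 to 128210004, plus strand) and was barely detected. Its 13 and 21 counts with FGF2 (1.43 and 2.135 CPM) stood against 15 and 19 counts in the cultures without it (1.43 and 1.755 CPM). The groups overlapped, and at this depth no difference was detectable (log2 fold change 0.17, standard error 0.47, edgeR adjusted p = 0.82). The direction turned to -0.15 without replicate 2 with FGF2. Spryd4, which overlaps 2.79% of the exonic length of Gls2 on the opposite strand, had 46 to 79 counts.

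All 3 glutamate transporters rose. Slc1a3, the gene of GLAST, the astrocyte transporter that is expressed early in development, lies on chromosome 15 (8634124 to 8710764, minus strand). It had the most counts of the 9 genes, with 2475 and 2624 CPM with FGF2 and 1836 and 1811 CPM without FGF2. Every library with FGF2 was above every library without FGF2, by 1.40-fold on average (log2 fold change 0.48, standard error 0.03, edgeR adjusted p = 7e-57).

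Slc1a2, which encodes GLT-1, the main glutamate transporter of mature astrocytes, lies on chromosome 2 (102658659 to 102790784, plus strand). Its level was 1305 and 1273 CPM with FGF2 and 1084 and 1076 CPM without FGF2. The rise was 1.19-fold (log2 fold change 0.25, standard error 0.03, edgeR adjusted p = 3.7e-14), the smallest of the 3. The ratio of Slc1a2 to Slc1a3 counts was 0.527 and 0.485 with FGF2 and 0.591 and 0.594 without FGF2, so the balance between the astrocyte transporters was lower for Slc1a2 in both libraries with FGF2. On the log2 scale the mean ratio was -0.98 ± 0.09 in cultures given FGF2 and -0.76 ± 0.01 in the others (SD, n = 2). They differed by -0.23, and a two-sided exact permutation test gave p = 0.333, which is the lowest value possible for 2 against 2 libraries.

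Slc1a1, the gene of EAAC1, a glutamate and cysteine transporter found mainly on neurons, lies on chromosome 19 (28835049 to 28913960, plus strand). It had 142 and 145 CPM with FGF2 and 94.7 and 102 CPM without FGF2. This was the largest rise among the 9 genes, 1.46-fold (log2 fold change 0.55, standard error 0.06, edgeR adjusted p = 1.1e-17). In the same libraries 12 of 14 neuron markers were lower and 1 higher, and 10 of 10 tested oligodendrocyte lineage markers were higher. Of 14 tested astrocyte markers, 8 were higher and 4 lower. The cells behind the rise of Slc1a1 were not tested. The gene 4430402I18Rik overlaps 31.9% of the exonic length of Slc1a1 on the opposite strand. Its counts were 113 and 74 in the cultures given FGF2 and 121 and 95 in the others, against 995 to 1429 for Slc1a1, and its log2 fold change was -0.03 (edgeR adjusted p = 0.92). The strand setting of the counting is not given in the sources used here, and unless strands were kept apart the reads of these 2 genes cannot be told apart.

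Among the glutamine transporters, Slc38a3, Slc38a2 and Slc38a1 went different ways. Slc38a3, the gene of SNAT3, through which astrocytes release glutamine, lies on chromosome 9 (107650634 to 107669530, minus strand). It had 87.9 and 87.3 CPM with FGF2 and 188 and 179 CPM without FGF2. The level was 2.09-fold lower with FGF2, the largest change of the 9 genes, with each group tightly spaced (log2 fold change -1.07, standard error 0.06, edgeR adjusted p = 2.6e-69). With each library left out it stayed between -1.11 and -1.03.

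Slc38a2, the gene of SNAT2, an amino acid transporter known to be induced when amino acids are scarce, lies on chromosome 15 (96687392 to 96699730, minus strand). Its level was 137 and 138 CPM with FGF2 and 105 and 102 CPM without FGF2. It rose 1.33-fold (log2 fold change 0.41, standard error 0.06, edgeR adjusted p = 1.9e-10), and the groups were well apart.

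Slc38a1, the gene of SNAT1, the glutamine transporter of neurons, lies beside it on chromosome 15 (96571418 to 96642913, minus strand). It had 429 and 439 CPM with FGF2 and 456 and 446 CPM without FGF2. Both libraries with FGF2 were slightly lower, but the difference did not pass the test (log2 fold change -0.05, standard error 0.04, edgeR adjusted p = 0.27). It did not pass under any alternative tried, with adjusted p-values from 0.088 to 0.75. The log2 ratio of Slc38a3 to Slc38a1 averaged -2.31 ± 0.03 in cultures given FGF2 and -1.30 ± 0.03 in the others (SD, n = 2). They differed by -1.01 (two-sided exact permutation p = 0.333, again the lowest possible).

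**Figure D2:**
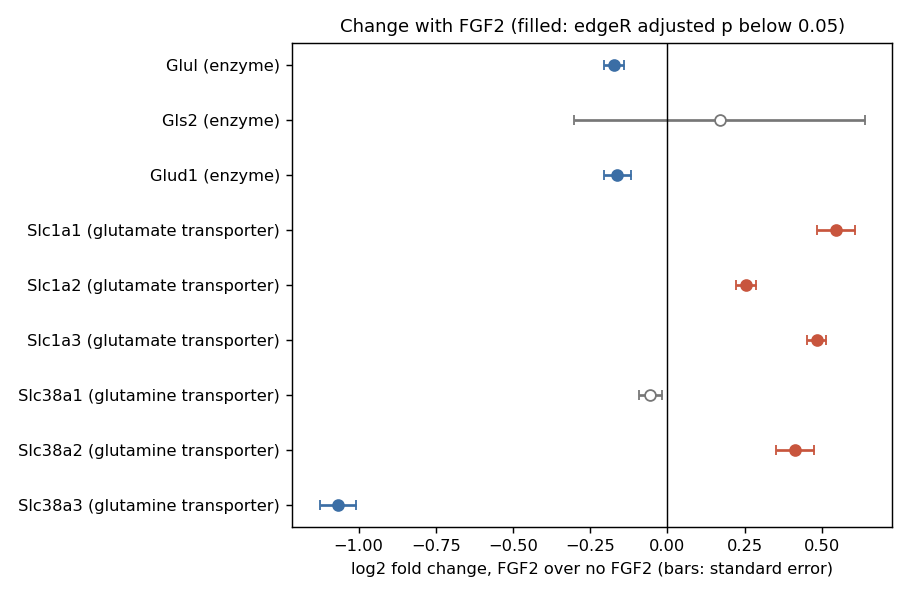
Log2 fold change of the 9 genes, FGF2 over no FGF2 (horizontal axis), with the standard error as bars. Filled red and blue points passed the adjusted p-value threshold of 0.05 in edgeR as higher and lower, and open grey points did not. The 3 glutamate transporters lie between 0.25 and 0.55, Glul and Glud1 near -0.17 and -0.16, and Slc38a3 at -1.07.

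Per kilobase of exon, which allows levels to be compared between genes, Slc1a3 and Glul were the most abundant of the 9 genes and Gls2 the least. With FGF2 the order was Slc1a3 (299 ± 12.4 CPM per kb), Glul (264 ± 8.72), Slc1a2 (98.1 ± 1.73), Glud1 (63.9 ± 0.88), Slc38a1 (25.2 ± 0.40), Slc1a1 (17.4 ± 0.25), Slc38a3 (16.6 ± 0.081), Slc38a2 (15.6 ± 0.044) and Gls2 (0.51 ± 0.14; SD, n = 2). Without FGF2, Glul (298 ± 6.69 CPM per kb) stood above Slc1a3 (214 ± 2.07), and Slc38a3 (34.8 ± 1.24) stood above Slc38a1 (26.2 ± 0.38). Slc1a1 (11.9 ± 0.66 CPM per kb) and Slc38a2 (11.7 ± 0.28) did not differ beyond their spread without FGF2. The exonic length joins the exons of all transcripts, and with the length of the longest transcript instead, an alternative chosen after the values were seen, Slc1a3 was first in both groups and Slc38a1 was above Slc38a3 in both groups.

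RefSeq promoter windows of build GRCm38.p6, 250 bases before to 50 after the start site, were matched for 6 of the 9 genes. They were searched on both strands for the ATF4 element (CARE) TGATGNAA, known from amino acid response genes, the cAMP response element TGACGTCA, and the short glucocorticoid receptor motif AGAACA, since Glul is known to respond to glucocorticoids. The only match in these windows was an AGAACA in Slc1a3, 24 bases before the start site. The window matched for Slc1a2, at chr2:102706188-102706487 (plus strand), lies inside the gene, which begins at 102658659. Sequence at that beginning was therefore not searched. Of 32851 promoter windows, 19.0% hold that motif, 3.97% the CARE and 1.79% the cAMP element. Sequence outside the windows was not searched, so a window without a match says nothing of elements further away. Shown here are the windows of Slc1a3, with the most counts among the genes that rose and with the match in capitals, of Slc38a2, which also rose, and of Glul, which fell. They lie at chr15:8710758-8711057 (minus strand), chr15:96699679-96699978 (minus strand) and chr1:153899679-153899978 (plus strand).
Slc1a3: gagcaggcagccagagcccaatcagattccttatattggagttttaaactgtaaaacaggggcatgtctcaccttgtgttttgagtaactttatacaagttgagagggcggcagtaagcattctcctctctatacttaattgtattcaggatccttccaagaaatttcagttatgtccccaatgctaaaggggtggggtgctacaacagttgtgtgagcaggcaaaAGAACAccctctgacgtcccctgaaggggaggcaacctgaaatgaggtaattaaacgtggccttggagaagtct
Slc38a2: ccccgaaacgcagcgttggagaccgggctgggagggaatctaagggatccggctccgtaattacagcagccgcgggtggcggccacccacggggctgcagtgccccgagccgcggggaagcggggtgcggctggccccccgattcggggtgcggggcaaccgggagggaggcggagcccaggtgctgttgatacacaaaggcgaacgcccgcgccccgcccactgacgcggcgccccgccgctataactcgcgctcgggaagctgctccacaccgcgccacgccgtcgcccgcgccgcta
Glul: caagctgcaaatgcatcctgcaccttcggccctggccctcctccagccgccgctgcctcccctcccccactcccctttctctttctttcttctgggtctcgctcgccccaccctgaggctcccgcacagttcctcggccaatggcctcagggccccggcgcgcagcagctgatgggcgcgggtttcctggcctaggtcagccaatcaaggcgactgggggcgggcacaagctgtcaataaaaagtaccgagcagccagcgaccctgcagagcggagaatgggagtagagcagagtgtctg
The windows differ in base composition. That of Slc1a3 is 45.3% G and C with 3 CpG sites, that of Slc38a2 is 73.0% with 41 CpG sites and that of Glul is 64.3% with 17 CpG sites. Promoter activity was not measured in these libraries.

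Of 21 tested enzymes outside the 9 genes, 11 were lower and 5 higher at the adjusted threshold (edgeR), against 19.9% and 20.7% of all tested genes. The median log2 fold change of these enzymes was -0.20. The largest falls were those of Abat (-0.73), which breaks down GABA, Gad2 (-0.72) and Gad1 (-0.67), which make GABA from glutamate, and Got1 (-0.70), the cytosolic aspartate aminotransferase. Gad1 had 259 and 277 CPM with FGF2 and 418 and 434 CPM without FGF2. The mitochondrial partner of Got1, Got2, also fell, from 205 and 207 CPM to 160 and 159 CPM. The largest rises were those of Ctps (0.58) and Ctps2 (0.48), the CTP synthases that use glutamine as nitrogen donor, Oplah (0.38), which releases glutamate from oxoproline, and Gfpt2 (0.32), of the hexosamine pathway. With DESeq2, 7 of these enzymes were lower and 3 higher, and Gfpt2 did not pass (adjusted p = 0.16).

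Of 12 tested transporters outside the 9 genes, 6 were lower and 3 higher (edgeR), with a median of -0.16. Slc7a8 (-0.55), Slc7a5 (-0.45) and Slc1a4 (-0.44), all neutral amino acid transporters, fell, as did Slc3a2 (-0.13), the heavy chain that partners Slc7a5 and Slc7a11. Slc38a9 (0.33), a lysosomal amino acid sensor, Slc38a10 (0.17) and Slc7a11 (0.14), the cystine and glutamate exchanger, rose. With DESeq2, Slc38a9 passed (adjusted p = 0.04), while Slc38a10, Slc7a11 and Slc3a2 did not (adjusted p = 0.29, 0.20 and 0.23). The number of calls depended on the fit, since 5 of these 12 genes passed with DESeq2 and 5 passed without replicate 1 without FGF2. Among 7 vesicular and mitochondrial carriers 3 were lower and 0 higher (2 and 0 with DESeq2), a share near the 40.5% called over all tested genes, namely Slc25a22 (-0.60), a mitochondrial glutamate carrier, Slc25a12 (-0.28), an aspartate and glutamate carrier, and Slc17a6 (-0.34), the vesicular glutamate transporter VGLUT2. Slc17a6 was the least certain, with 15.0 and 14.9 CPM with FGF2 and 21.5 and 16.4 CPM without FGF2, and its adjusted p reached 0.65 over the alternatives (0.35 with DESeq2). VGLUT1 (Slc17a7) had 47.5 and 48.0 CPM with FGF2 and 45.5 and 45.3 CPM without FGF2 (edgeR adjusted p = 0.57).

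Slc38a2 belongs to the genes known to respond to amino acid shortage through ATF4, and 18 others of that kind were tested. Of these, 6 were lower and 4 higher (edgeR), with a median of 0.05. Over all tested genes, 19.9% were lower and 20.7% higher with edgeR. With DESeq2, 23.2% of the genes given an adjusted p-value passed in either direction. Among the listed genes past the edgeR threshold, Mthfd2 (-0.51), Ddit4 (-0.46), Slc7a5 (-0.45) and Sesn2 (-0.42) had the largest falls. Mthfd2 and Ddit4 did not pass with DESeq2 (adjusted p = 0.18 and 0.076), whereas Slc7a5 and Sesn2 did (adjusted p = 7.1e-06 and 0.023). Nupr1, a stress response gene, rose by 2.23 on the log2 scale from a low level, with 13.0 and 10.1 CPM with FGF2 and 2.28 and 2.59 CPM without FGF2. Phgdh (0.27), of serine synthesis, and Slc7a11 (0.14, DESeq2 adjusted p = 0.20) rose less. Atf4 itself had 111 and 104 CPM with FGF2 and 107 and 101 CPM without FGF2 and did not pass (log2 fold change 0.04, edgeR adjusted p = 0.63). With DESeq2 3 were lower and 2 higher, and without replicate 1 without FGF2 3 were lower and 3 higher. This list shares 4 genes with the enzyme and transporter lists.

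**Figure D3:**
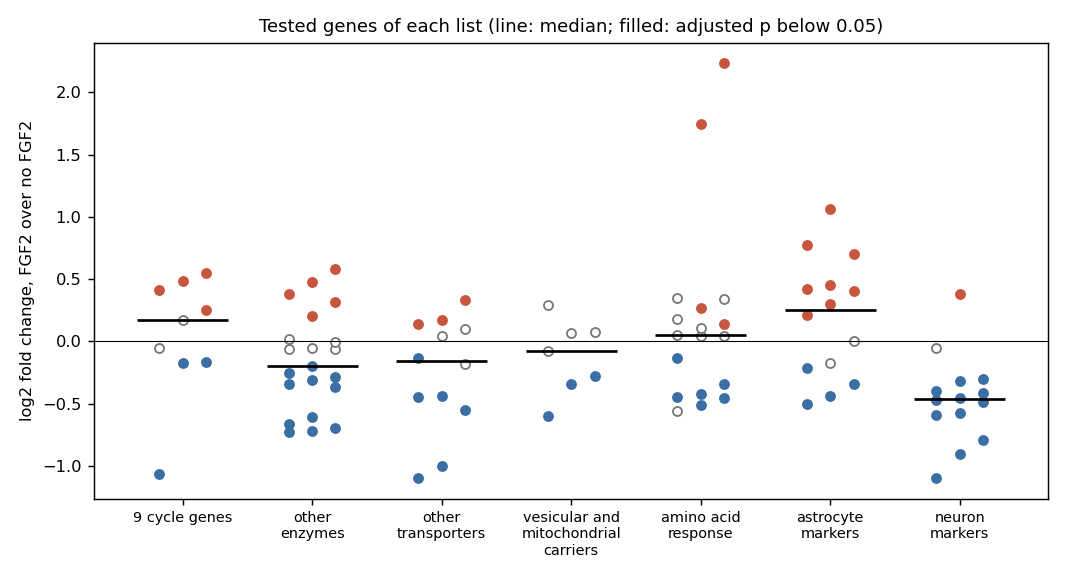
Log2 fold change, FGF2 over no FGF2 (vertical axis), of the tested genes of each list. Each point is a gene, filled where the edgeR adjusted p-value was below 0.05 (red higher, blue lower), and each line is the median of a list. The medians are 0.17 for the 9 genes, -0.20 for other enzymes, -0.16 for other transporters, -0.08 for carriers, 0.05 for amino acid response genes, 0.25 for astrocyte markers and -0.46 for neuron markers.

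Since the cultures differed in their neuronal and astrocytic RNA, each gene was also set against the mean log2 level of 14 astrocyte markers and of 14 neuron markers in the same library, as a description with no test. Against the astrocyte markers, Glul was at 1.83 and 1.79 with FGF2 and at 2.20 and 2.15 without FGF2, a difference of -0.36. Glud1 differed by -0.35 and Slc38a3 by -1.26 on this scale. Slc1a2 differed least among the glutamate transporters, by 0.06, while Slc1a3 differed by 0.29 and Slc1a1 by 0.36. Slc38a2 differed by 0.22 and Slc38a1 by -0.25, on a scale where the marker mean itself was 0.19 higher with FGF2. The astrocyte markers themselves were uneven, with 8 of the 14 higher and 4 lower with FGF2 (edgeR, adjusted p-value below 0.05). Among the higher ones, Gfap had 5945 and 5641 CPM with FGF2 and 2781 and 2770 CPM without FGF2, whereas Gja1 had 378 and 395 CPM against 343 and 325 CPM.

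The mean of the neuron markers itself differed by -0.47, so a gene level in CPM comes out higher by about that much against them. Against the neuron markers, 8 of the 9 genes were higher with FGF2, from 0.29 for Glul to 1.01 for Slc1a1, and Slc38a3 was lower by -0.60. The share of all tested genes that would be higher on this scale was not worked out. Slc38a1, near level in CPM, was at 1.42 and 1.46 with FGF2 and at 1.02 and 1.04 without FGF2 relative to these markers, a difference of 0.41. Of the 14 neuron markers, 12 were lower and 1 higher (edgeR, adjusted p-value below 0.05). Among the lower ones, Tubb3, Rbfox3 and Map2 had log2 fold changes of -1.10, -0.90 and -0.32. Thus Slc38a3 was lower and Slc1a1, Slc1a2, Slc1a3 and Slc38a2 were higher with FGF2 on each of these scales. The direction of Glul, Glud1 and Slc38a1 depended on the markers they were set against. So did that of Gls2, on few counts, at -0.05 against the astrocyte markers and 0.61 against the neuron markers. The part of the mix of cells in these differences was not tested.

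**Figure D4:**
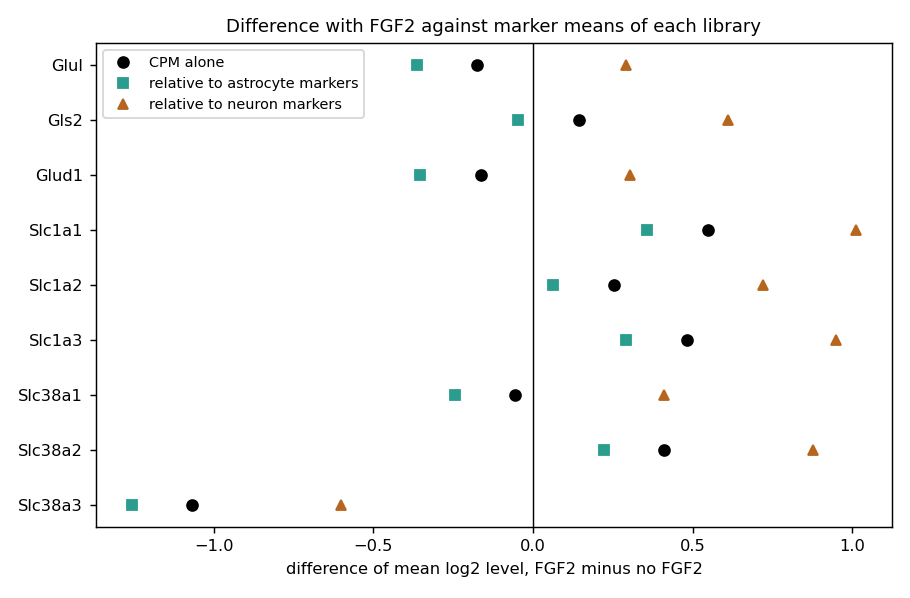
Difference of the mean log2 level, FGF2 minus no FGF2 (horizontal axis), of each of the 9 genes in CPM alone (black circles), relative to the astrocyte markers (green squares) and relative to the neuron markers (brown triangles). Slc38a3 lies below 0 on each scale, from -1.26 to -0.60, and the 3 glutamate transporters lie above 0 on each.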

How the data were processed

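RNA of mouse cultures was sequenced in 4 libraries, 2 with and 2 without FGF2. The authors mapped clean reads to mm10 with HISAT2 2.1.0, kept reads with a mapping quality of at least 20 using Samtools, and counted reads with HTSeq 0.11.2 (versions from the submitters' processing notes), and the deposited values are raw counts per gene. The annotation and strand setting of the counting are not given in the sources used here. The quality filter drops reads that align to several places, so a gene with a near copy can be counted too low.

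Of the 55421 listed genes, 55154 were matched by Ensembl identifier to GENCODE M21. The 5 tally entries, among them read pairs in no gene (43.2% to 45.9% of a library), were left out. Counts were tested with edgeR 4.0.16 in R 4.3.3 (quasi-likelihood test, TMM scaling, edgeR's expression filter, robust fit, Benjamini-Hochberg adjustment over 17144 genes). After the fits to the real counts, the fits were also run on counts simulated from the levels and spread of these libraries, with results not given here. CPM is the count of a gene brought to the same library size after TMM scaling. Ratios between genes were tested by exact permutation over libraries. Near copies were sought with BLAST 2.17.0. Alternatives were scaling by RLE, by upper quartiles or by total counts, other filters, DESeq2 1.42.0, limma-voom 3.58.1, a replicate block, offsets for GC content and exonic length, and leaving out each library. Beyond the members, any gene of the 4 pathway lists could be named, first up to 4 per direction with the largest change past the threshold and a mean of at least 5 CPM, together with 8 cell type markers. Got2, Atf4 and Slc17a7 were named after their values were seen. A gene that the rule also takes is not reported here. The members and lists were chosen with earlier results of these data known. The replicates of a group differed by more than counting noise (chi-square per degree of freedom 2.28 with FGF2 and 1.76 without FGF2) and were kept apart.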

Additional observations from a re-analysis of the deposited data

How the results depend on the processing

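The 7 calls among the 9 genes kept their direction under each of the 14 alternatives, and 7 calls were made under each but 1. Leaving out replicate 1 without FGF2 left 6, with Glud1 at -0.12 (edgeR adjusted p = 0.14). With each library left out the log2 fold change ran from -0.21 to -0.12 for Glud1 and from -0.15 to 0.42 for Gls2, which rests on 13 to 21 counts. DESeq2 moved the counts of other genes past the threshold most, to 10 enzymes, 5 transporters and 5 amino acid response genes in place of 16, 9 and 10. A threshold of 0.01 left 5 transporters, and leaving out a library left 5 to 7 transporters and 6 to 10 amino acid response genes. The causes were not tested. The deviations of the libraries numbered 1 from their group means were nearly uncorrelated between the groups (correlation across genes 0.0021). From 2 libraries per group, this does not settle whether libraries of the same number shared a culture or batch. When the replicate block was used, 7 of the 9 genes and 6814 of all genes passed, in place of 6949 without it. The ratios of Slc1a2 to Slc1a3 and of Slc38a3 to Slc38a1 kept their direction, with differences of -0.23 and -1.01 within the replicate block. With 2 libraries per group, no exact test could pass a threshold of 0.05.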

Other observations

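Among genes that were not first by the naming rule, chosen after their values were seen, Slc1a5 (ASCT2, a glutamine exchanger of dividing cells) had 3.09 and 3.25 CPM with FGF2 and 7.805 and 5.82 CPM without FGF2. Its log2 fold change was -1.10 (standard error 0.28, edgeR adjusted p = 0.00039), on 28 to 82 counts per library, and its adjusted p reached 0.059 over the alternatives. Slc1a6 (EAAT4, known from cerebellar Purkinje cells) was also low and lower with FGF2, with 14 and 21 counts against 46 and 33 (edgeR adjusted p = 0.024, DESeq2 adjusted p = 0.23). Gclc and Gclm, the subunits of the enzyme that joins glutamate to cysteine for glutathione, did not pass the test. Gclc had 136 and 125 CPM with FGF2 and 129 and 132 CPM without FGF2 (log2 fold change -0.0028, standard error 0.06), and Gclm had 68.9 and 74.6 CPM against 74.4 and 75.3 CPM. Aldh18a1, which starts proline synthesis from glutamate, had 111 and 100 CPM with FGF2 and 89.0 and 95.1 CPM without FGF2 (log2 fold change 0.20, edgeR adjusted p = 0.0085), and this call was lost with DESeq2 (adjusted p = 0.16).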
